A study of Mus musculus with 20 samples.

Results

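Expression of 6 adrenergic receptor genes was followed through the amygdala of descendants of stressed and unstressed mice: Adra1a, Adra1b and Adra1d of the alpha1 class, Adra2a and Adra2c of the alpha2 class, and Adrb1 of the beta class. They were taken by symbol from a table of 29671 genes, and all 6 were present and passed the filter on low counts that left 16727 genes for testing. The study sequenced mRNA from bilateral punches of the amygdala of 20 male C57B6 mice at postnatal day 84, none of which had been behaviourally tested. The groups, with 5 mice each, were F2 stress lineage, F2 no-stress lineage, F1 stress lineage and F1 no-stress lineage. The generations are counted after a chronic unpredictable stress procedure, which the series title places in adolescence, so the mice sequenced were descendants and the 4 groups shared strain, sex, age and tissue. Mice were bred in house, and neither the stressed parent nor the number of litters is given in the sources used here. The tests treat every mouse as independent, also where some may be littermates.

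Noradrenaline reaches the amygdala mainly along axons from the locus coeruleus and is released during arousal and stress, when it takes part in the storing of emotional memory. Alpha1 receptors couple to Gq and raise calcium through phospholipase C beta, alpha2 receptors couple to Gi and lower cyclic AMP, and beta receptors couple to Gs and raise it. Alpha2 receptors also sit on noradrenergic terminals, where they restrain further release, so a receptor can act on the sending or on the receiving cell. The noradrenergic cell bodies lie in the brainstem, and a punch of amygdala holds mRNA of local cells only.

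In short, no receptor gene was called changed by lineage in either generation. The clearest pattern lay between mice of the same group: Adra2c was high in libraries rich in striatal neuron markers and low in libraries poor in them, and Adra2a and Adra1a ran the other way. Adra2c was also the most abundant of the 6 mRNAs per length of transcript.

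Library totals lay between 13654890 and 13714805 counts, a spread of 0.439%, so depth had been equalised in some way before deposit, and the depth behind it is not known. Levels are given as CPM, the usual scale of counts relative to the library's total, here the total over the tested genes adjusted with trimmed-mean (TMM) factors of 0.956 to 1.04. The biological coefficient of variation, the spread between mice of a group beyond counting error, was 18.1% over all genes. It was 16.1% for Adrb1, 21.04% for Adra1b, 22.1% for Adra1a, 31.2% for Adra2c, 34.3% for Adra2a and 41.3% for Adra1d. Adra1d thus varied more between mice of a group than 95.2% of all genes tested.

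The tissue label was set beside marker genes. All 7 central amygdala markers, among them Prkcd and Crh, and all 10 markers of pallial excitatory neurons, which include those of the basolateral amygdala, had counts in every library. So had all 11 markers of striatal medium spiny neurons, a cell type that fills the neighbouring striatum and is akin to cells of the central amygdala. Presence alone does not show how much of each tissue a punch held. The central amygdala markers summed to 69.6 to 138.6 CPM in F2 stress and 62.5 to 120.3 CPM in F2 no-stress mice. In F1 they summed to 66.0 to 166.3 CPM in stress and 58.1 to 144.2 CPM in no-stress mice. Summed over the 11 genes, the striatal markers ranged from 469.3 to 6445 CPM in F2 stress mice, from 1524 to 5955 CPM in F2 no-stress mice, from 1084 to 3344 CPM in F1 stress mice and from 1480 to 6001 CPM in F1 no-stress mice. The 2 extremes were both F2 stress libraries, replicate 14 at the low end and replicate 15 at the high end. The pallial markers also varied widely. Their sum was 576 to 1625 CPM in F2 stress and 110.9 to 1630 CPM in F2 no-stress mice. In F1 it was 268.9 to 1729 CPM in stress and 541.8 to 1655 CPM in no-stress mice. The lowest sums were those of F2 no-stress replicate 20 and F1 stress replicate 3. Of the markers of noradrenergic neurons, Phox2a had 0 counts in 18 of 20 libraries and Slc6a2, the noradrenaline transporter, had 0 counts in 13 of 20. Dbh, which makes noradrenaline out of dopamine, had at most 25 counts, and Th, the first enzyme of catecholamine synthesis, had 20 to 96.

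Compared per length, the receptors formed an order with Adra2c on top. Over the 20 libraries, Adra2c averaged 6.96 CPM per kb of merged exons, Adra2a 2.99, Adrb1 2.85, Adra1b 1.54, Adra1a 1.49 and Adra1d 0.462. Adra2c lay above Adrb1, Adra1b, Adra1a and Adra1d in 20 of 20 libraries and above Adra2a in 18 of 20. Adra2a and Adrb1 were not separated, with Adra2a the higher in 10 of 20. Adra1b lay above Adra1a in 14 of 20, but this place depends on which transcript is taken. The merged exons of Adra1a span 8728 bases and its longest transcript 4282, and by the longest transcript Adra1a averaged 3.03 CPM per kb and lay above Adra1b in 20 of 20. By that length Adrb1 averaged 3.26 and Adra2a 2.99 CPM per kb, and Adra1a was not separated from them, lying above Adra2a in 11 of 20 libraries and above Adrb1 in 8 of 20. Adra2c stayed on top, above Adra1a in 19 of 20. Of the summed per-kb level of the 6 genes, Adra2c made up 42.0% on average, and its share ran from 22.1% in F2 stress replicate 14 to 63.4% in F2 stress replicate 15.

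**Figure D1:**
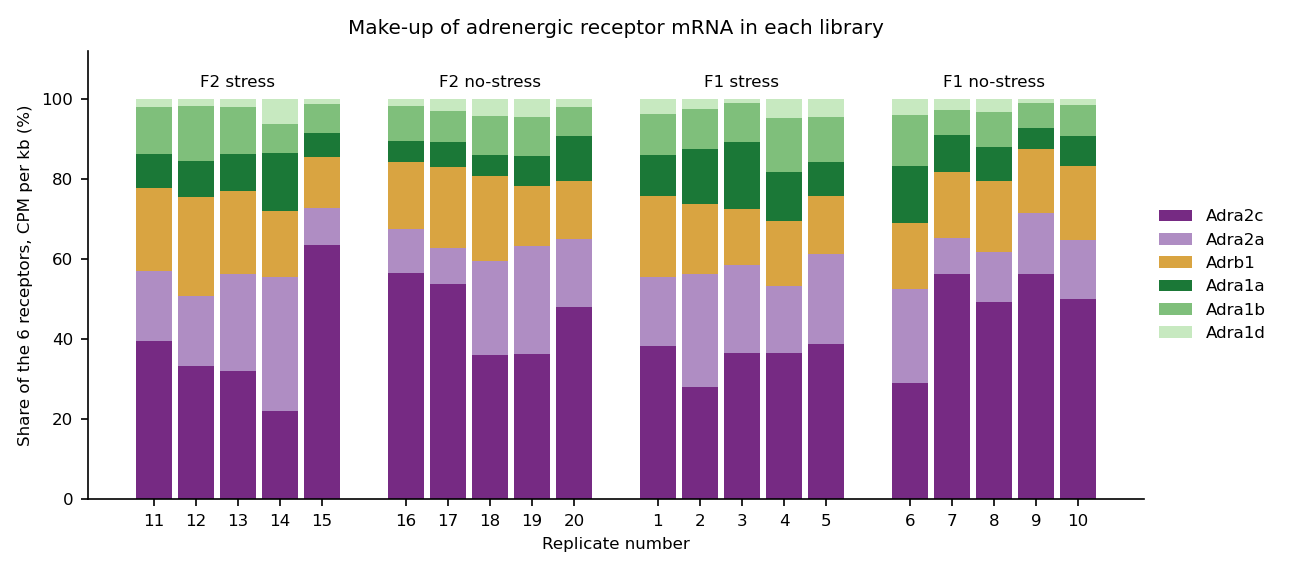
Share of each receptor gene in the summed level of the 6 genes (CPM per kb of merged exons, percent, vertical axis) in each of the 20 libraries, grouped by F2 stress, F2 no-stress, F1 stress and F1 no-stress. Adra2c took the largest share in 18 of 20 libraries and spanned 22.1% to 63.4%, both within F2 stress.

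Adra2c encodes an alpha2 receptor known from the striatum and other forebrain areas, and lies as a gene of 1 exon at chr5:35278319-35281763 on the plus strand (GRCm38). It had 20.1, 18.4, 16.4, 11.3 and 45.4 CPM in F2 stress mice (replicates 11 to 15), against 38.2, 29.3, 24.0, 22.8 and 25.1 CPM in F2 no-stress mice (replicates 16 to 20). In F2 stress, 4 libraries lay below all F2 no-stress libraries, and replicate 15 lay above them all. The means were 22.3 ± 13.3 CPM in F2 stress and 27.9 ± 6.29 CPM in F2 no-stress (SD, n = 5 each), a log2 difference of -0.32 ± 0.29 (SE) that was not called (edgeR quasi-likelihood test, adjusted p = 0.504, 95% interval of the fold 0.527 to 1.21). In F1 the same gene had 19.9, 14.1, 17.5, 18.1 and 23.7 CPM in stress mice (replicates 1 to 5), against 15.4, 30.5, 25.5, 36.6 and 27.6 CPM in no-stress mice (replicates 6 to 10). All but 1 of the F1 no-stress libraries, replicate 6, lay above all F1 stress libraries. The F1 means were 18.7 ± 3.49 CPM in stress and 27.1 ± 7.75 CPM in no-stress mice, a log2 difference of -0.54 ± 0.29 that was not called either (edgeR adjusted p = 0.739, fold 0.453 to 1.05).

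Across the 6 receptors, 0 were called in F2, where 7.92% of all genes tested were. An unadjusted p below 0.05 was reached by 0 of them and by 25.6% of all genes. In F1, 0 were called, beside 0% of all genes (1030 genes had an unadjusted p below 0.05), and again 0 reached an unadjusted p below 0.05. DESeq2 and limma-voom also called 0 of the 6 in both generations. The median log2 difference of the 6 was 0.00 in F2, where that of all genes was 0.00, and 0.33 in F1, where that of all genes was also 0.00. In F1 the 4 genes with positive values were Adra1a, Adra1b, Adra1d and Adra2a, and the other 2, Adra2c and Adrb1, had negative ones. Since less RNA per cell and fewer cells of a type give the same value in a bulk punch, the 2 cannot be told apart for any of these genes.

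The result for Adra2c in F2 rested on 1 library. Without F2 stress replicate 15 the log2 difference was -0.75 and passed the threshold (edgeR adjusted p = 0.0288), in a fit that called 14.4% of all genes and 8.36% as lower. Over the 22 other settings tried for this comparison the adjusted p ran from 0.0288 to 0.763. With GC content and length of transcripts entered as a per-library offset the direction turned, to 0.18 (adjusted p = 0.763). At 65.5% GC, Adra2c ranks above 99.8% of the genes tested. The trend of a library with GC content was taken as the median deviation (log2 CPM) of the 10% of genes highest in GC minus that of the 10% lowest. It averaged -0.19 ± 0.25 in F2 stress and 0.34 ± 0.27 in F2 no-stress, and -0.07 ± 0.14 in F1 stress and -0.07 ± 0.23 in F1 no-stress (SD, n = 5 each).

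**Figure D2:**
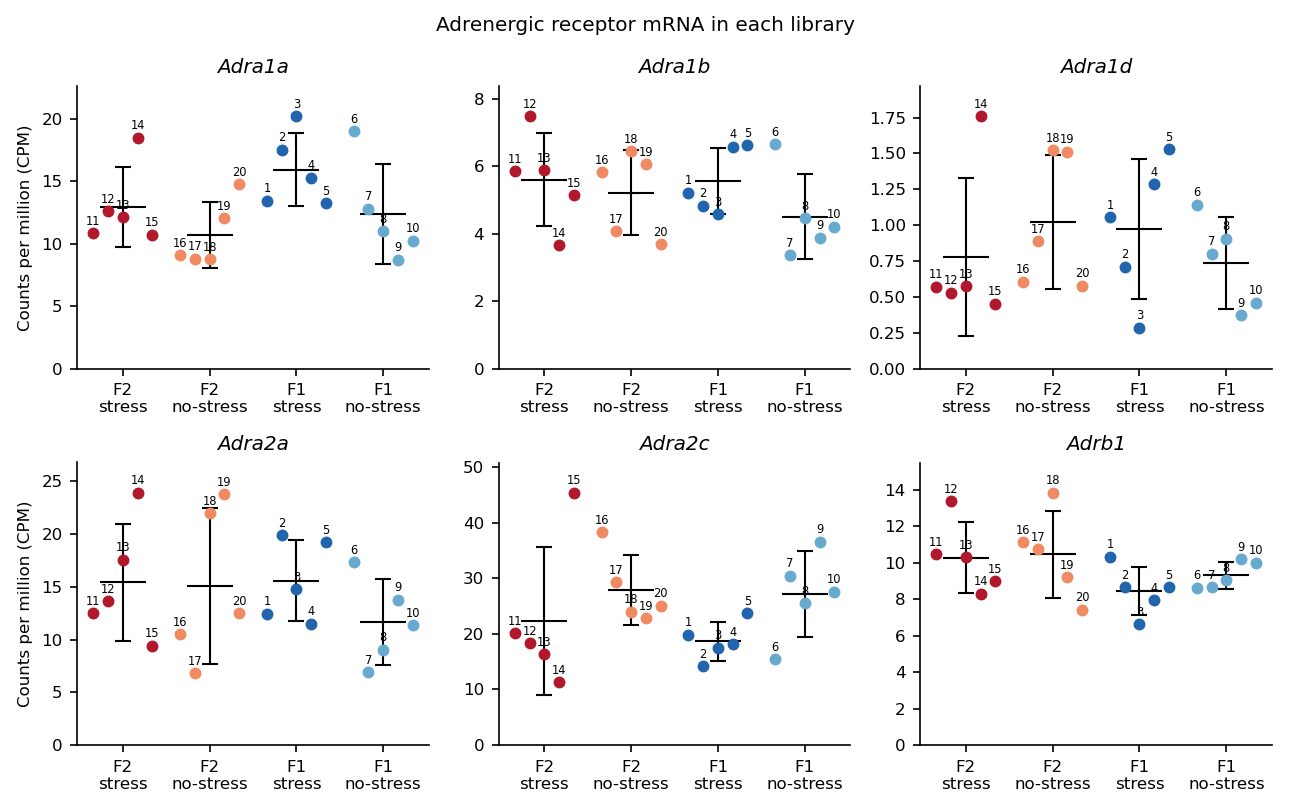
Level of each receptor gene in CPM (vertical axis, from 0) for every library, with the replicate number above its point, in F2 stress, F2 no-stress, F1 stress and F1 no-stress. Horizontal lines are group means and error bars the SD of 5 mice, and for Adra2c replicate 15 stood at 45.4 CPM above the other F2 stress mice.

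Adra2a, the other alpha2 receptor and the main autoreceptor of noradrenergic terminals, lies at chr19:54044151-54048982 on the plus strand. It had 12.5, 13.7, 17.6, 23.9 and 9.44 CPM in F2 stress mice, against 10.5, 6.81, 21.97, 23.8 and 12.5 CPM in F2 no-stress mice. Both groups spread widely around means of 15.4 ± 5.58 CPM in F2 stress and 15.1 ± 7.40 CPM in F2 no-stress mice. The log2 difference was 0.03 ± 0.32, with a fold between 0.646 and 1.61 (edgeR adjusted p = 0.969), so that neither a moderate rise nor a moderate fall was detectable. In F1 the values were 12.5, 19.9, 14.8, 11.5 and 19.2 CPM in stress mice, against 17.4, 6.92, 9.05, 13.8 and 11.4 CPM in no-stress mice. Stress libraries were higher in 20 of the 25 pairs of an F1 stress with an F1 no-stress library, and the log2 difference was 0.41 ± 0.32 (edgeR adjusted p = 0.754, fold 0.838 to 2.11).

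Adra1a, a Gq-coupled receptor at chr14:66635251-66771168 on the plus strand, had 10.8, 12.6, 12.1, 18.5 and 10.7 CPM in F2 stress mice, against 9.09, 8.81, 8.77, 12.03 and 14.8 CPM in F2 no-stress mice. The F2 stress value of 18.5 CPM belonged to replicate 14, the library lowest in striatal markers, and the groups overlapped. The log2 difference was 0.28 ± 0.21 in F2 (edgeR adjusted p = 0.421, fold 0.898 to 1.63). It was 0.11 without F2 stress replicate 14 and 0.42 without F2 no-stress replicate 20, the lowest and highest values with 1 library left out. In F1, Adra1a had 13.4, 17.6, 20.2, 15.3 and 13.3 CPM in stress mice, against 19.01, 12.8, 11.02, 8.72 and 10.2 CPM in no-stress mice. Every F1 stress library lay above every F1 no-stress library but replicate 6, which was the F1 no-stress library lowest in striatal markers, and the log2 difference was 0.37 ± 0.20 (edgeR adjusted p = 0.739, fold 0.960 to 1.73).

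Adra1b and Adra1d encode the remaining alpha1 receptors. Adra1b, at chr11:43774606-43901210 on the minus strand, averaged 5.60 ± 1.38 CPM in F2 stress and 5.22 ± 1.25 CPM in F2 no-stress mice, and 5.57 ± 0.975 CPM in F1 stress and 4.51 ± 1.27 CPM in F1 no-stress mice. Single libraries ranged from 3.35 CPM in F1 no-stress replicate 7 to 7.48 CPM in F2 stress replicate 12, and the groups overlapped in both generations. The log2 differences were 0.10 ± 0.21 in F2 and 0.30 ± 0.21 in F1 (edgeR adjusted p = 0.804 and 0.742).

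Adra1d, at chr2:131545850-131562283 on the minus strand, was scarce. It had 4 to 25 counts a library, or 0.777 ± 0.551 CPM in F2 stress and 1.02 ± 0.469 CPM in F2 no-stress mice, and 0.974 ± 0.489 CPM in F1 stress and 0.736 ± 0.319 CPM in F1 no-stress mice. The 95% interval of the fold ran from 0.400 to 1.47 in F2 and from 0.680 to 2.54 in F1, so changes of moderate size were not detectable in either direction. An antisense gene, Gm14285, overlaps 670 bases of its gene span, introns included, and had 0 to 4 counts. Whether exons overlap was not looked at, and the strand setting of the counting is not given in the sources used here. Where exons do overlap, a few counts of either gene could belong to the other.

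Adrb1 encodes the beta1 receptor, which raises cyclic AMP and is the beta receptor most studied in forebrain neurons. The gene lies at chr19:56722199-56733113 on the plus strand. It had 10.5, 13.4, 10.3, 8.30 and 8.99 CPM in F2 stress mice, against 11.1, 10.7, 13.8, 9.22 and 7.43 CPM in F2 no-stress mice. The groups covered nearly the same range, and the interval of the fold was the narrowest of the 6 in F2, from 0.788 to 1.23 (log2 difference -0.03 ± 0.15, edgeR adjusted p = 0.941). In F1 it had 10.3, 8.67, 6.65, 7.94 and 8.67 CPM in stress mice, against 8.65, 8.67, 9.05, 10.2 and 10.01 CPM in no-stress mice. The log2 difference there was -0.14 ± 0.16 (edgeR adjusted p = 0.820, fold 0.725 to 1.14).

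**Figure D3:**
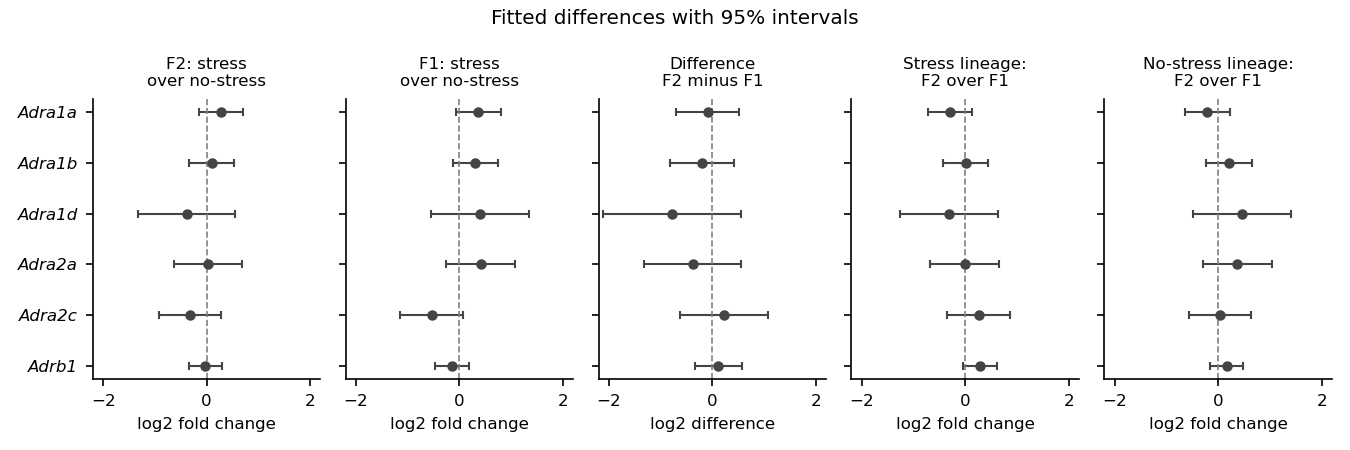
Log2 difference of each receptor gene with its 95% interval (horizontal axis) in 5 panels: stress over no-stress lineage in F2 and in F1, the F2 effect minus the F1 effect, and F2 over F1 within the stress and within the no-stress lineage. Every interval crossed 0.

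The lineage effect did not differ detectably between the generations for any receptor. With the F1 effect subtracted from the F2 effect, 0 of the 6 were called (edgeR), beside 2.52% of all genes. Of the 6, 0 had an unadjusted p below 0.05, beside 21.2% of all genes. The values ran from -0.78 ± 0.64 for Adra1d to 0.22 ± 0.41 for Adra2c, whose interval reached from 0.644 to 2.09 in fold. Between the generations within the no-stress lineage, 0 of 6 were called beside 2% of all genes, and 5 of 6 values were positive, from 0.04 for Adra2c to 0.47 for Adra1d. Adra1a stood alone with -0.21 ± 0.21. Within the stress lineage, 0 of 6 were called beside 0.012% of all genes, with 3 values positive and 3 negative, and Adrb1 had the smallest unadjusted p (0.0809), at 0.28 ± 0.15 for F2 over F1. The comparisons of generations share libraries with those of lineages and add no independent support. DESeq2 and limma-voom called 0 of the 6 in these 3 comparisons as well.

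Within groups, Adra2c tracked the striatal markers closely. The striatal score, the mean log2 CPM of the 11 markers, and log2 CPM of each receptor were centred on their group means, so that differences between groups played no part. Adra2c then had a Pearson r of 0.885 and a Spearman rho of 0.856 with the score over the 20 libraries (permutation p = 1e-05 each, the smallest the resamples can give, adjusted p = 0.00012 over 12 relations). Without F2 stress replicates 14 and 15, the libraries farthest from the median score, r was 0.824. Of all genes tested, 1.32% had an r with the score as high as this. Among the single markers, r with Adra2c was positive for 11 of 11 and lay between 0.834 and 0.915, where the median over all genes was -0.01.

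Adra2a, Adra1a and Adra1d ran against the striatal score. For Adra1a r was -0.686 and rho -0.535 (permutation p = 0.00078 and 0.0167, adjusted p = 0.00243 and 0.0401), and r was -0.613 without the same 2 libraries. For Adra2a r was -0.682 and rho -0.665 (permutation p = 0.00081 and 0.00184, adjusted p = 0.00243 and 0.00992), and r was -0.605 without them. For the scarce Adra1d r was -0.637 and rho -0.648 (permutation p = 0.00215 and 0.00248, adjusted p = 0.00516 and 0.00992), and r was -0.483 without them. Each of these 3 genes had a negative r with 11 of 11 striatal markers. Of all genes tested, 4.93% had an r with the score as far below 0 as that of Adra1a, 5.07% as that of Adra2a and 6.61% as that of Adra1d. Adrb1 (r 0.311, rho 0.382, permutation p = 0.181 and 0.0965, adjusted p = 0.241 and 0.145) and Adra1b (r 0.08, rho -0.10, permutation p = 0.748 and 0.683, adjusted p = 0.898 and 0.778) showed no relation past the threshold.

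With the score of pallial excitatory neurons, which are glutamatergic cells of cortex and basolateral amygdala, Adrb1 was the receptor with the highest r. Its r was 0.689 and its rho 0.562 (permutation p = 0.0008 and 0.0115, adjusted p = 0.00243 and 0.0345). Leaving out the libraries farthest from the median (F1 stress replicate 3 and F2 no-stress replicate 20) gave an r of 0.436, so part of the relation rests on those 2 libraries. Of all genes tested, 3.14% had an r with the pallial score as high as that of Adrb1. Adra1a had an r of -0.558 and a rho of -0.483 (permutation p = 0.0101 and 0.0324, adjusted p = 0.0202 and 0.0648), and -0.339 without the same 2. Adra2c (r -0.01, rho 0.09, permutation p = 0.970 and 0.713, adjusted p = 0.970 and 0.778) and Adra2a (r 0.04, rho 0.03, permutation p = 0.880 and 0.911, adjusted p = 0.960 and 0.911) had r near 0. Adra1b (r 0.400, rho 0.322, permutation p = 0.0776 and 0.168, adjusted p = 0.116 and 0.224) and Adra1d (r 0.480, rho 0.466, permutation p = 0.0315 and 0.0396, adjusted p = 0.0540 and 0.0679) did not pass the adjustment. All 10 pallial markers had a positive r with Adrb1, of median 0.644.

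**Figure D4:**
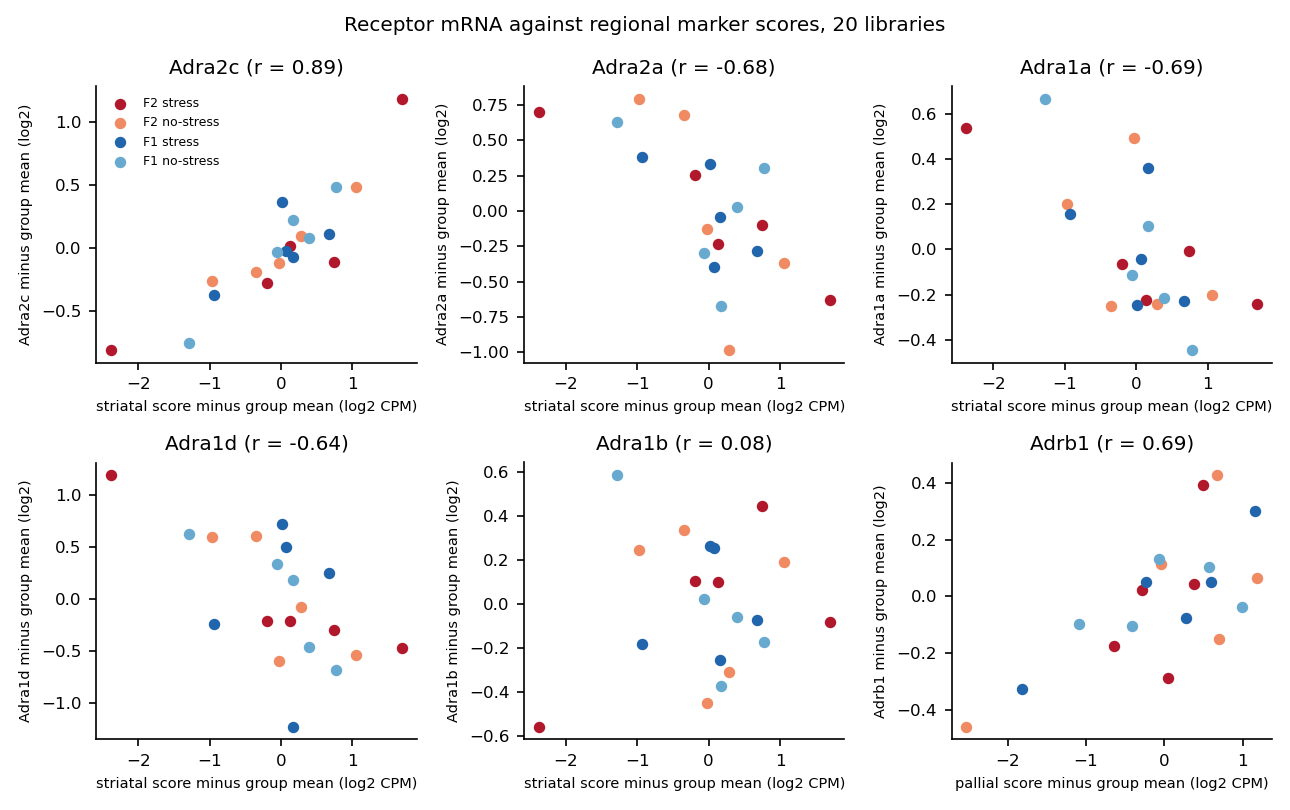
Receptor level against a regional marker score, both as log2 CPM minus the group mean, with 1 point per library coloured by group. The score is that of striatal medium spiny neurons in 5 panels and of pallial excitatory neurons for Adrb1, and Adra2c was higher where the striatal score was higher (r = 0.885) while Adra2a, Adra1a and Adra1d were lower there.

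The striatal markers also differed in value between the F1 lineages. Of the 11 striatal markers, 11 had negative log2 differences between F1 stress and F1 no-stress mice (median -0.85, 0 called by edgeR and 0 with an unadjusted p below 0.05), against a median of 0.00 over all genes. The F2 difference was negative for 7 of 11 (median -0.13, 0 called and 0 with an unadjusted p below 0.05). With the striatal score as a covariate the log2 difference of Adra2c was -0.20 in F2 and -0.13 in F1, against -0.32 and -0.54 without it. F1 no-stress replicate 6, the library that broke the F1 order of Adra2c and of Adra1a, had the lowest striatal score of its group, 6.10, where its group averaged 7.38 ± 0.779. Whether the share of striatal tissue in the punch sets the level of Adra2c was not tested.

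Markers of other cells were set beside Adra2c in the same way. All 8 microglial markers had a positive r with it (median 0.681), as had 8 of 8 oligodendrocyte markers (median 0.324), 6 of 6 endothelial markers (median 0.353) and 6 of 6 mural markers (median 0.309), while 2 of 7 central amygdala markers did (median -0.42). Of the astrocyte markers 5 of 7 had a positive r with Adra2c (median 0.246), and of the markers of oligodendrocyte precursors 0 of 3 (median -0.15). Summed microglial markers were 159.8 to 349.8 CPM in F2 stress, 233.6 to 294.2 CPM in F2 no-stress, 190.4 to 250.2 CPM in F1 stress and 230.1 to 274.0 CPM in F1 no-stress mice, with none at 0. Their part in the level of Adra2c was not tested.

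Among the 15 pairs of receptors, 3 had relations past the adjusted threshold, and all 3 were negative. Adra2c and Adra1a had r -0.695 and rho -0.692 (permutation p = 0.00047 and 0.00095, adjusted p = 0.00705 and 0.0127 over the 15 pairs), with -0.493 after leaving out replicates 6 (F1 no-stress) and 14 (F2 stress). Adrb1 and Adra1a had r -0.659 and rho -0.665 (permutation p = 0.00151 and 0.00169, adjusted p = 0.0113 and 0.0127), and -0.669 without the same 2. Adra2c and Adra2a, the 2 alpha2 receptors, had r -0.593 and rho -0.638 (permutation p = 0.00512 and 0.00311, adjusted p = 0.0256 and 0.0156), and -0.647 once replicates 17 and 19 of F2 no-stress were left out. These relations come from the same 20 libraries as those with the regional scores.

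The genes most like each receptor, by Pearson r over the 20 centred libraries, were picked from all genes tested and are given as likeness only. For Adra2c they were Dbp (0.947), Cbr3 (0.945) and Tmem158 (0.943). For Adra1a they were Itsn1 (0.961), Trp53bp1 (0.940) and Nhs (0.919), and for Adrb1 Kcnip3 (0.909), Pgbd5 (0.900) and Rab6b (0.894). For Adra2a they were AC122013.2 (0.908), Camk2n2 (0.902) and Homer2 (0.880). Adra1b had lower values, with Rhpn2 (0.847), Tubb4a (0.834) and Zfp703 (0.828), as had Adra1d, with Nelfcd (0.854), Prpf19 (0.836) and Pih1d1 (0.836). Each was the highest of 16726 values, so its size follows in part from the choice.

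Around the receptors, 60 genes of noradrenaline handling and receptor signalling were read in the same fit, and 56 passed the filter. In F2, 3 were higher and 3 lower in the stress lineage (edgeR, adjusted p below 0.05). That was 10.7% called, beside 7.92% of all genes, of which 2.64% were higher and 5.28% lower. An unadjusted p below 0.05 was found for 16 of the 56, and for 25.6% of all genes tested. All 6 lost the call with the offset for GC content and length. All 6 also lost it without F2 stress replicate 11 (adjusted p of 0.0542 to 0.134) and without F2 no-stress replicate 17 (0.0553 to 0.114), and single genes lost it in 2 of the 10 fits that left out an F2 library (Pde4a) to 7 of 10 (Pde4c). In F1, 0 of 56 were called (edgeR), beside 0% of all genes. There 2 had an unadjusted p below 0.05, as had 6.16% of all genes. Between generations 0 were called in either lineage, beside 0.012% of all genes for stress and 2% for no-stress. An unadjusted p below 0.05 was found for 3 genes for stress and 7 for no-stress, beside 6.99% and 20.2% of all genes. The fit of F2 libraries alone called 0 genes of any kind, and the cause was not tested.

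Of 6 tested genes of noradrenaline synthesis, transport and breakdown, 2 were called higher in F2 stress than in F2 no-stress mice. Both were monoamine oxidases, the mitochondrial enzymes that break down noradrenaline, dopamine and serotonin. Maoa averaged 46.6 ± 6.37 CPM in F2 stress and 37.7 ± 3.07 CPM in F2 no-stress mice (SD, n = 5 each), a log2 difference of 0.31 ± 0.09 (edgeR adjusted p = 0.0440). Maob averaged 32.3 ± 4.78 CPM in F2 stress and 24.6 ± 1.97 CPM in F2 no-stress mice, with 0.39 ± 0.11 (adjusted p = 0.0307). The lowest F2 stress library had 27.7 CPM of Maob and the highest F2 no-stress library 26.8. How many of all genes were separated in this way was not counted. Under the offset for GC content and length the values were 0.18 for Maoa and 0.29 for Maob (adjusted p = 0.335 and 0.184). Maoa kept its call in 10 of 22 other settings. Beside the offset, it lost it in 6 of the 10 fits that left out 1 F2 library, with library totals (0.0685), without a low-count filter (0.0781), in the fit of F2 libraries alone (0.147), with limma-voom (0.0525) and without replicates 14 and 20 together (0.0506). In F1, Maoa averaged 46.1 ± 1.25 CPM in stress and 42.4 ± 4.25 CPM in no-stress mice, and Maob 30.1 ± 4.51 CPM in stress and 30.2 ± 1.99 CPM in no-stress mice. For both genes the F2 no-stress mean was the lowest of all groups. The median log2 difference of the 6 genes in F2 was 0.07.

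Of 8 tested G protein alpha subunits, 1 was called higher in F2 stress than in F2 no-stress mice. This was Gnai3, an inhibitory subunit through which alpha2 receptors can lower cyclic AMP. It averaged 39.2 ± 3.77 CPM in F2 stress and 30.6 ± 1.40 CPM in F2 no-stress mice, with 0.35 ± 0.08 (edgeR adjusted p = 0.0181). Its lowest F2 stress value was 33.4 CPM and its highest F2 no-stress value 32.6. The share of all genes separated in this way was not counted. In F1 Gnai3 averaged 32.4 ± 1.84 CPM in stress and 36.5 ± 4.53 CPM in no-stress mice. The difference between its lineage effects was itself called at 0.52 ± 0.12 (edgeR adjusted p = 0.0314). It was the only gene of the 56 so called, beside 2.52% of all genes. That call was lost in 11 of the 20 fits that left out 1 library (replicates 2, 3 and 4 of F1 stress, 7, 8 and 10 of F1 no-stress, 11, 12 and 13 of F2 stress, 16 and 17 of F2 no-stress), with adjusted p of 0.0596 to 0.0752. With the offset Gnai3 stood at 0.21 in F2 (adjusted p = 0.218) and at 0.37 for the difference between the effects (adjusted p = 0.150). Gnai1, another inhibitory subunit, averaged 155.8 ± 31.4 CPM in F2 stress and 116.1 ± 20.1 CPM in F2 no-stress mice and missed the threshold (adjusted p = 0.0528). It passed in 6 of 22 other settings. Among them were the fits without F2 stress replicate 15 (0.0101) and without F2 no-stress replicate 19 (0.0405). The call of Gnai1 also came with RLE factors (0.0490), 1 surrogate variable (0.0299), the striatal score as covariate (0.0446) and DESeq2 (0.0228). Over the 10 fits that left out 1 F2 library its adjusted p reached 0.172, and with the offset its log2 difference was 0.29 (adjusted p = 0.268). Over the whole list, 3 of 8 subunits had positive values in F2 (median -0.04). With the offset 8 of 8 were positive and the median was 0.20, so the direction of this list turned.

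Of 4 phosphodiesterases of the Pde4 family, which break cyclic AMP down, 2 were called lower in F2 stress than in F2 no-stress mice. Pde4a averaged 83.7 ± 7.31 CPM in F2 stress and 107.5 ± 14.6 CPM in F2 no-stress mice, with -0.36 ± 0.09 (edgeR adjusted p = 0.0237). The scarce Pde4c averaged 1.34 ± 0.302 CPM in F2 stress and 2.37 ± 0.595 CPM in F2 no-stress mice, with -0.82 ± 0.23 (adjusted p = 0.0369). With the offset these became -0.05 and -0.46 (adjusted p = 0.868 and 0.319). In F1, Pde4a averaged 96.8 ± 7.20 CPM in stress and 90.3 ± 8.70 CPM in no-stress mice. Pde4c averaged 1.75 ± 0.234 CPM in F1 stress and 1.43 ± 0.471 CPM in F1 no-stress mice. Over 22 other settings, Pde4a kept its call in 18 and Pde4c in 11. None of 9 adenylyl cyclases, the enzymes that make cyclic AMP, was called in F2 (edgeR, 7 of 9 values negative, median -0.18, 1 with an unadjusted p below 0.05). With the offset 3 of the 9 were negative and the median was 0.03, so the direction of this list turned. Nor was any of 6 protein kinase A subunits (5 of 6 positive, median 0.20, 2 with an unadjusted p below 0.05) or of 4 phospholipase C beta genes (2 of 4 positive, median -0.05, 1 with an unadjusted p below 0.05). With the offset 6 of 6 protein kinase A subunits and 1 of 4 phospholipase C beta genes were positive.

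Of 6 receptor kinases and arrestins, which switch off activated receptors, 1 was called lower in F2 stress than in F2 no-stress mice. This was Grk6, with 53.7 ± 2.05 CPM in F2 stress and 63.9 ± 5.82 CPM in F2 no-stress mice (log2 difference -0.25 ± 0.07, edgeR adjusted p = 0.0241). In F1, Grk6 averaged 56.7 ± 2.71 CPM in stress and 57.1 ± 1.97 CPM in no-stress mice. Grk6 turned to 0.05 with the offset (adjusted p = 0.743). Of the 6 receptor kinases and arrestins, 2 were positive in F2 (median -0.09), and 6 with the offset (median 0.06). Of 6 scaffold proteins known to bind adrenergic receptors, 0 were called in F2 (edgeR, 4 of 6 negative, median -0.26, 2 with an unadjusted p below 0.05). With the offset 3 of the 6 scaffold genes were negative and their median was -0.02. Gipc1, a scaffold known for binding the beta1 receptor, averaged 19.9 ± 2.54 CPM in F2 stress and 28.1 ± 7.44 CPM in F2 no-stress mice and missed the threshold (adjusted p = 0.0509). It passed in 6 of 22 other settings. Among them were the fits without F2 stress replicate 15 (0.0215) and without F2 no-stress replicate 20 (0.00683). The call of Gipc1 also came with a minimum of 1 CPM in 5 libraries (0.0485), 1 surrogate variable (0.0411) and DESeq2 (0.0283). Over the 10 fits that left out 1 F2 library its adjusted p reached 0.122, and with the offset its log2 difference was -0.09 (adjusted p = 0.743). None of 5 RGS genes, whose products shorten G protein signals, was called (edgeR, 3 of 5 positive in F2, median 0.08, 2 with an unadjusted p below 0.05).

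A further pair of receptor genes was read beside the 6. Adra2b, an alpha2 receptor, averaged 2.81 ± 1.78 CPM in F2 stress and 3.24 ± 1.19 CPM in F2 no-stress mice, and 2.17 ± 0.458 CPM in F1 stress and 2.90 ± 0.781 CPM in F1 no-stress mice. Adrb3, the beta receptor best known from fat cells, averaged 0.526 ± 0.542 CPM in F2 stress and 0.480 ± 0.270 CPM in F2 no-stress mice, and 0.508 ± 0.335 CPM in F1 stress and 0.236 ± 0.138 CPM in F1 no-stress mice. Neither was called in any of the 5 comparisons (edgeR).

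**Figure D5:**
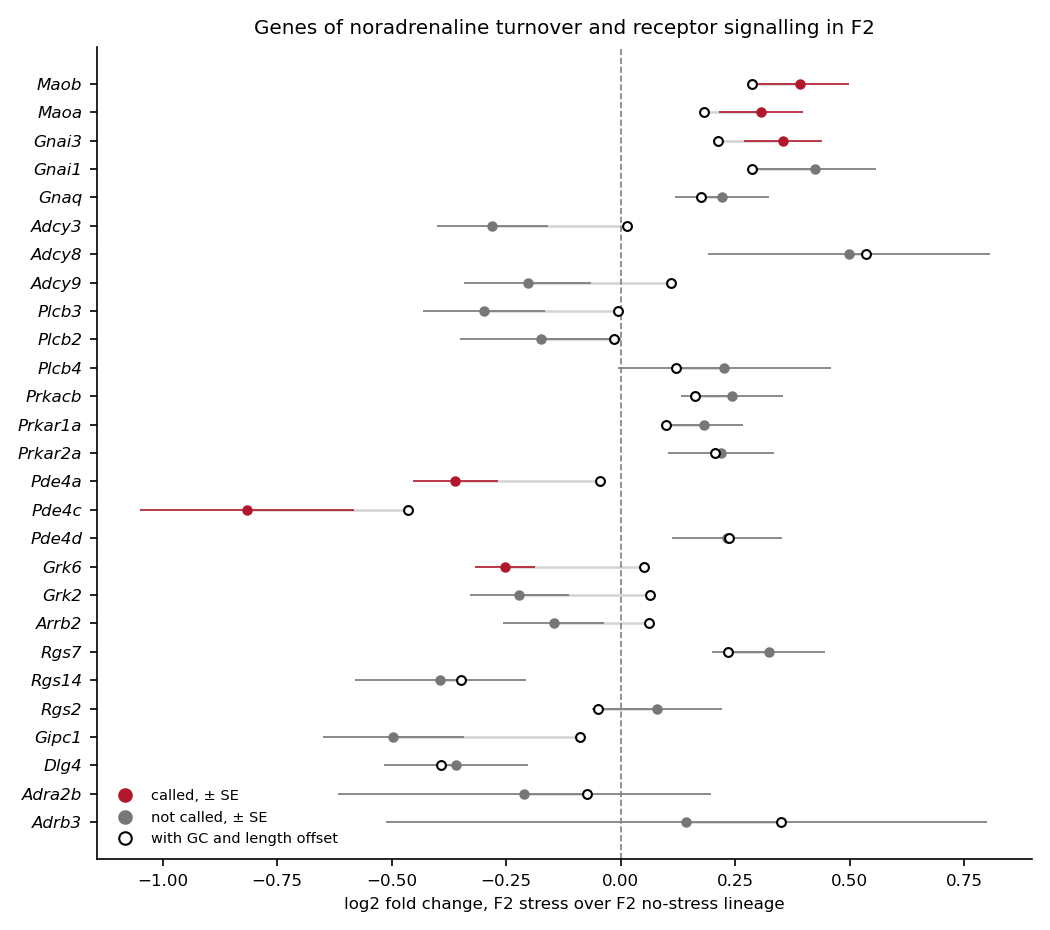
Log2 fold change of F2 stress over F2 no-stress mice (horizontal axis) for the genes of smallest p in each list of noradrenaline handling and receptor signalling (up to 3 a list). Filled points with SE bars are the fit (red where called) and open points the fit with an offset for GC content and length, which lay nearer to 0 for each of the 6 called genes.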

How the data were processed

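The deposited values were whole-number counts per gene and library, and the table itself shows no further normalization beyond the nearly equal totals. The submitters' processing notes name STAR 2.5.3a and the build GRCm38, and per the labels' protocols the libraries were stranded and poly-A enriched. Counting tool, annotation, strand setting, original depth and batch were not given in the sources used here. In all, the files hold 20 columns, 1 per mouse, and each was matched to its sample by title. Replicate numbers run from 1 to 20 over the groups and name no pairs, and whether mice shared a litter is not known.

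All 20 libraries entered 1 fit with a mean per group: edgeR 4.0.16 in R 4.3.3, TMM factors, genes kept by filterByExpr, robust quasi-likelihood F test, and Benjamini-Hochberg adjustment over 16727 genes (called below 0.05). P-values of the fit set a group difference against the spread between these mice within groups. Those of the correlations come from shuffling the centred values over all 20 libraries without regard to group. Log2 CPM used a prior count of 2. Gene positions, lengths and GC content came from GENCODE M21 (GRCm38). Correlations used 100000 resamples. Named genes were the 6 receptors, the 3 genes of smallest p in F2 in each pathway list and the 3 genes most like each receptor. A few genes of the lists are not reported here and enter no list count, and no other gene took their place. Members and lists were chosen with earlier results of these data known.

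Other settings were RLE and upper-quartile factors, library totals, no filter, a minimum of 1 CPM in 5 libraries, only the groups compared, splines of GC content and length (5 degrees of freedom each) as offsets, 1 surrogate variable (sva 3.50.0), the striatal score as covariate, limma-voom 3.58.1, DESeq2 1.42.0, an exact permutation test of each receptor (252 arrangements, smallest p 0.00794), and each library left out. Leaving out replicates 14 (F2 stress) and 20 (F2 no-stress) together was chosen after seeing the data. The fit was tested on simulated data.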

Additional observations from a re-analysis of the deposited data

Results flagged for a closer look

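Each value here stood apart from the other 4 libraries of its group, by a gap of more than 0.71 of the group's range. Chance alone would set apart about 1 in 20 groups, and 64 groups of values were examined for the 6 receptors and the marker scores. Among the receptors, Adra2c stood at 45.4 CPM in F2 stress replicate 15, where the next highest library of the group had 20.1 CPM. Adra1a stood at 18.5 CPM and Adra1d at 1.76 CPM in F2 stress replicate 14, which had the lowest striatal marker score of all libraries. The same library was lowest of its group in the oligodendrocyte score (5.93 log2 CPM). The astrocyte score was lowest in F1 stress replicate 2 (7.70 log2 CPM), and the endothelial score in F1 no-stress replicate 8 (4.30 log2 CPM).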

How the results depend on the processing

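Of 731 receptor fold changes under other settings, 680 kept their direction and stayed uncalled, 1 passed the threshold and 50 turned in direction, none of them larger than 0.402 in size. The counts of called receptors were 0 under every setting but 1, so they ran from 0 to 1 in F2 when single libraries were left out. With the offset for GC content and length, fold changes turned to 0.18 for Adra2c, 0.14 for Adra1d and 0.36 for Adrb1 in F2. In F2 over F1 they turned to -0.40 for Adra2c and -0.13 for Adrb1 within the no-stress lineage and to 0.13 for Adra2a within the stress lineage, and for the difference between the lineage effects to 0.0067 for Adra1b and 0.023 for Adra2a. Of the named pathway genes in F2, Adcy3 turned to 0.013, Adcy9 to 0.11, Grk6 to 0.050, Grk2 to 0.063, Arrb2 to 0.062 and Rgs2 to -0.050. Genes not named here turned as well. Positive F2 values went from 3 to 8 of 8 G protein alpha subunits and from 2 to 6 of 9 adenylyl cyclases. Among 6 receptor kinases and arrestins they went from 2 to 6.

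With 1 surrogate variable, Adrb1 was 0.016, Adra2a -0.10 and Adrb3 -0.41 in F2, Adra1a 0.069 and Adra2c -0.23 for the difference between effects, and Adra1b -0.012, Adra2a 0.042 and Adra2c -0.019 in F2 over F1 within the stress lineage. With the striatal score as covariate, Adrb1 was 0.014, Adra2a -0.18 and Adrb3 -0.69 in F2, and Adra2c -0.067 for the difference between effects. Adra1b in F2 over F1 within the stress lineage was -0.0054 with library totals, -0.015 with limma-voom and -0.010 in the permutation test, and limma-voom gave -0.59 for Adrb3 in F2. Without replicates 14 (F2 stress) and 20 (F2 no-stress) together, Adra2a was -0.25, Adrb3 -0.58 and Adra2b 0.32 in F2.

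When 1 library was left out, F2 fold changes ran from -0.024 to 0.22 for Adra1b, -0.19 to 0.25 for Adra2a, -0.14 to 0.10 for Adrb1, -0.044 to 0.17 for Rgs2, -0.52 to 0.092 for Adra2b and -0.54 to 0.45 for Adrb3. They kept their sign at 0.11 to 0.42 for Adra1a, -0.75 to -0.15 for Adra2c and -0.93 to -0.20 for Adra1d. In F1 all 6 kept their sign, at 0.26 to 0.58 for Adra1a, 0.21 to 0.49 for Adra1b, 0.17 to 0.63 for Adra1d, 0.26 to 0.60 for Adra2a, -0.69 to -0.41 for Adra2c and -0.22 to -0.07 for Adrb1. Over all 21 other settings for F1 the signs also held, but most values came nearer to 0. The smallest in size were 0.11 for Adra1a, 0.21 for Adra1b, 0.052 for Adra1d and 0.091 for Adra2a. For Adra2c the smallest was -0.067 and for Adrb1 -0.015. With 1 library left out, the difference between effects ran from -0.30 to 0.054 for Adra1a and -0.21 to 0.39 for Adra2c. F2 over F1 ran from -0.11 to 0.17 for Adra2c in the no-stress lineage, and in the stress lineage from -0.12 to 0.13 for Adra1b, -0.23 to 0.12 for Adra2a and -0.18 to 0.42 for Adra2c. Without the 2 libraries farthest from the median score, r turned to -0.26 for Adra1b with the striatal score and to -0.018 for Adra2a with the pallial score. The level of Adra1a per kb was 3.03 by the longest transcript.

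The number of genes called in F2, 1324 as reported, was 737 without a low-count filter, 0 with only the F2 libraries, 8 with the offset, 2173 with 1 surrogate variable, 2019 with DESeq2, 2213 without replicates 14 and 20, and 241 to 2431 with 1 library left out. In F1, 0 as reported, it was 1 with library totals, 2 with DESeq2, and 0 to 1 with 1 library left out. For the difference between effects, 421 as reported, it was 100 without a filter, 0 with the offset, 901 with the striatal score, 1211 with DESeq2, 1643 without replicates 14 and 20, and 0 to 1501 with 1 library left out. For F2 over F1 in the no-stress lineage, 335 as reported, it was 208 with library totals, 61 without a filter, 0 with only those groups, 9 with the offset, 681 with 1 surrogate variable, 607 with the striatal score, 1013 with DESeq2, 631 without replicates 14 and 20, and 0 to 725 with 1 library left out. In the stress lineage, 2 as reported, it was 0 with library totals and with only those groups, 4 with the offset, 1 with limma-voom, 6 with DESeq2, 14 without replicates 14 and 20, and 0 to 10 with 1 library left out. The cause of these differences was not tested.

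Adra1d had no value in the fit of the F2 libraries alone, where it did not pass the filter. No paired analysis was possible because the labels name no pairs or litters. With 5 mice a group, intervals of the receptor fold changes were wide. Adra1d had 4 to 25 counts a library and the largest spread of the 6 between mice, and the part of depth in its interval was not tested.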
